A study of Mus musculus with 6 samples.

Results

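The smooth muscle contractile genes were the 10 genes of the deposited expression table whose symbol was Acta2, Actg2, Myh11, Tagln, Cnn1, Des, Smtn, Lmod1, Mylk or Myocd, out of 34745 genes in all. The rule matched symbols and used no measured value, but the list was drawn up with earlier results of these data known. RNA came from prostate tissue of male C57BL/6 mice, with 3 CON mice and 3 T + E2 mice. Mice of the T + E2 group, 6 to 8 weeks old at the start, carried a slow-release pellet of testosterone and estradiol (T:E2 at 10:1) under the skin for 12 weeks. The pellet was replaced each month. CON mice of the same strain and age had only the skin incision, repeated at these times, and carried no pellet. Each library came from a different mouse. The pellet serves as a model of prostate enlargement by added hormone, and RNA of prostate tissue mixes stroma with epithelium.

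Smooth muscle cells of the prostate stroma contract the gland during emission and hold its resting tone. In these cells a rise in calcium switches on myosin light chain kinase, which phosphorylates the light chains of smooth muscle myosin so that myosin pulls on filaments of smooth muscle actin. Most genes of this machinery share control by serum response factor (SRF), which binds a DNA element called the CArG box, together with the coactivator myocardin.

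All 10 genes were detected in every mouse and passed the filter on low counts. After T + E2 treatment 3 of them were downregulated, Acta2, Lmod1 and Des, to between 70.5 and 78.5% of the CON mean. No contractile gene was upregulated, and none reached the size of a DEG, which needs a log2 fold change beyond 1 in either direction besides an adjusted p under 0.05. The median log2 fold change of the 10 genes was -0.28, and 9 of the 10 values were below zero, whereas the median over all 15580 tested genes was -0.002. Among all tested genes 9.25% were downregulated, 10.4% were upregulated and 7.64% were DEGs. The 3 calls rest on few mice: the count ran from 0 to 3 when each mouse was left out in turn, and was 0 without T + E2 mouse 2. In bulk tissue, a smaller share of smooth muscle cells and less RNA of these genes per cell cannot be told apart. Levels relative to the library total do not give the number of smooth muscle cells in the gland.

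Libraries held 14816146 to 16555549 counts on genes, and group differences are given as log2 fold changes of T + E2 against CON with the standard error (SE) of the edgeR fit. Adjusted p-values come from the quasi-likelihood test of edgeR with Benjamini-Hochberg adjustment across every tested gene. Levels of a gene are compared between mice as CPM, its counts relative to the library total after TMM scaling. With 3 mice in each group, 20.7% of all tested genes had every T + E2 mouse below every CON mouse and 20% had every T + E2 mouse above.

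The 10 genes together took 0.472, 0.533 and 0.567% of all counts in CON mice 1 to 3, and 0.431, 0.415 and 0.415% in T + E2 mice 1 to 3. The 3 T + E2 values lay below all CON values and close to each other, and CON mouse 1 lay nearest to them. CON mouse 1 was the lowest of its group for 8 of the 10 genes, and CON mouse 3 was the highest for 8. For 5 genes (Acta2, Tagln, Des, Smtn and Lmod1) all T + E2 mice were below all CON mice, and for none were all above. The plot of each gene by mouse shows a wide spread of the CON mice beside a narrow spread of the T + E2 mice for Acta2, Actg2 and Tagln, and like spreads for Smtn, Mylk and Myocd.

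**Figure D1:**
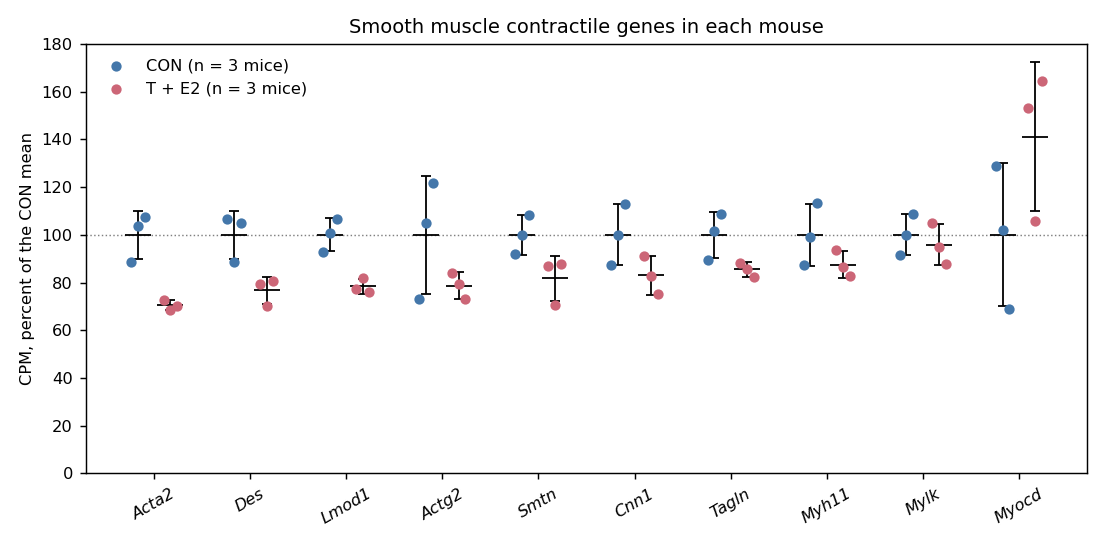
CPM of each contractile gene in each mouse as a percent of the CON mean of that gene; blue points are CON mice, red points are T + E2 mice, and the black dash and bars are the mean and SD of 3 mice. For Acta2, Des, Lmod1, Smtn and Tagln the red points lie below every blue point, while Myocd has its T + E2 mean at 141% of CON.

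Per length of transcript the genes kept a single order in both groups. Mean FPKM, which divides counts by gene length and library total, descended through Acta2, Tagln, Myh11, Cnn1, Des, Actg2, Mylk, Smtn, Lmod1 and Myocd, from 714 to 0.398 in CON mice and from 491 to 0.547 in T + E2 mice. Acta2 was 1.37 times Tagln in CON mice and 1.13 times Tagln in T + E2 mice. Neighbours in the order had ranges that did not overlap in either group, except Actg2 and Mylk. Actg2 ran from 39.1 to 63.7 FPKM and Mylk from 36.2 to 41.9 in CON mice, so the order of this pair lay within their spread, although Actg2 was above Mylk in each of the 6 mice. Lmod1 was 40.1 times Myocd in CON mice and 22.3 times Myocd in T + E2 mice, the widest step in both groups.

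**Figure D2:**
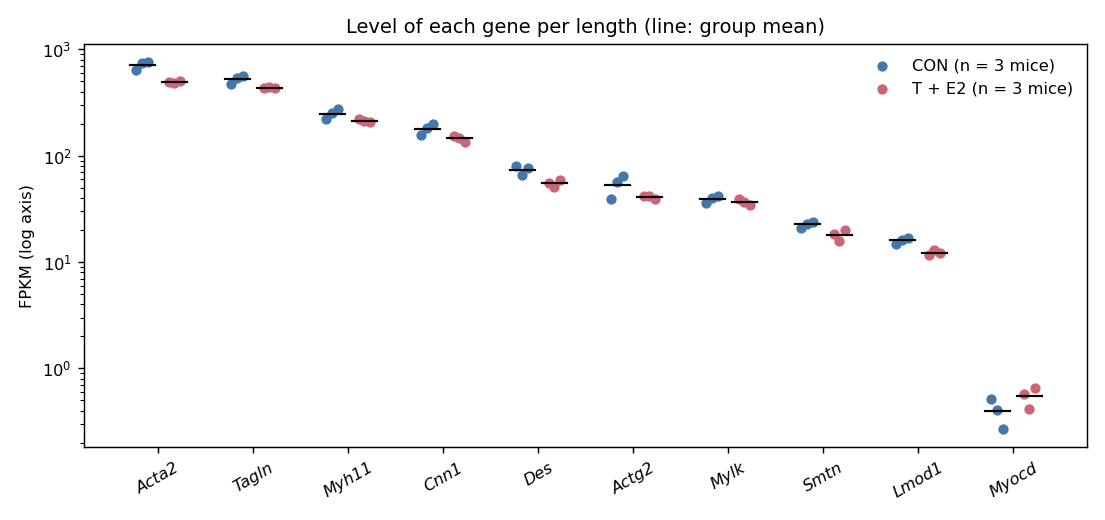
FPKM of each contractile gene in each mouse on a log axis, with genes in order of the CON mean and black lines at group means (3 mice each). The order is the same in both groups, from Acta2 at 714 and 491 FPKM to Myocd below 1 FPKM.

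Acta2 (ENSMUSG00000035783, chr19:34241090-34255336, minus strand, GRCm38) encodes smooth muscle alpha-actin, the main actin of vascular and prostatic smooth muscle, which pericytes and myofibroblasts also make. It measured 1116, 1304 and 1353 CPM in CON mice 1 to 3 and 914.6, 861.4 and 884.0 CPM in T + E2 mice 1 to 3. Every T + E2 mouse lay below the lowest CON mouse. The mean was 1258 ± 125 CPM in CON mice and 886.7 ± 26.7 CPM in T + E2 mice (SD, n = 3 each), and the log2 fold change was -0.50 ± 0.11 (SE; adjusted p = 0.0137). Over the 17 alternative analyses its log2 fold change stayed between -0.58 and -0.45. It passed the threshold in 15 of them and missed it without T + E2 mouse 2 (adjusted p = 0.0559) and without both mice richest in skeletal muscle RNA (adjusted p = 0.0878).

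Actg2 (ENSMUSG00000059430, chr6:83512905-83536265, minus strand) encodes smooth muscle gamma-actin, the actin typical of visceral smooth muscle. Its levels were 101.2, 145.8 and 169.1 CPM in CON mice 1 to 3 and 116.3, 110.2 and 101.2 CPM in T + E2 mice 1 to 3. CON mouse 1 lay within the T + E2 range, and the other CON mice lay above it. The log2 fold change was -0.34 ± 0.18 (SE; adjusted p = 0.206), and without CON mouse 1 it was -0.53 (adjusted p = 0.0242). The ratio of Actg2 to Acta2 in FPKM was 0.0613, 0.0756 and 0.0845 in CON mice and 0.0860, 0.0865 and 0.0774 in T + E2 mice. These groups overlapped, with a log2 difference of 0.18 (exact two-sided permutation test over mice, p = 0.2, where 0.1 is the smallest p this design allows). The longest alignment between transcripts of the 2 actins was 84.2% identical over 1143 bases. In the longest alignment with each other gene, no contractile gene reached 90% identity, and shorter alignments were not examined.

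Myh11 (ENSMUSG00000018830, chr16:14194527-14291408, minus strand) encodes the smooth muscle myosin heavy chain, the motor of contraction and the member most restricted to smooth muscle. CON mice 1 to 3 had 1427, 1620 and 1851 CPM, and T + E2 mice 1 to 3 had 1529, 1412 and 1348 CPM. T + E2 mouse 1 lay above CON mouse 1, so the groups overlapped. T + E2 against CON gave a log2 fold change of -0.19 ± 0.12 (SE; adjusted p = 0.297), with a 95% confidence interval from -0.47 to 0.09.

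Among the proteins that bind actin, Lmod1 (ENSMUSG00000048096, chr1:135324807-135368065, plus strand) encodes leiomodin 1, which nucleates actin filaments in smooth muscle. Its levels were 57.8, 62.8 and 66.4 CPM in CON mice and 48.3, 51.1 and 47.4 CPM in T + E2 mice, with no overlap. The log2 fold change was -0.35 ± 0.09 (SE; adjusted p = 0.0316). Lmod1 passed the threshold in 10 of 17 alternative analyses, and its log2 fold change ranged from -0.40 to -0.30 over them.

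Tagln (ENSMUSG00000032085, chr9:45929628-45936058, minus strand) encodes transgelin, also called SM22-alpha, which bundles actin. It measured 734.3, 832.5 and 892.1 CPM in CON mice and 724.0, 703.7 and 674.5 CPM in T + E2 mice, so T + E2 mouse 1 lay just under CON mouse 1. This gave a log2 fold change of -0.23 ± 0.10 (SE; adjusted p = 0.168). Tagln shares 65 bases with Pcsk7 on the opposite strand, and whether counting used strand is not given in the sources used here. Pcsk7 had at most 1310 counts in a mouse, against at least 10108 for Tagln.

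Cnn1 (ENSMUSG00000001349, chr9:22099281-22109630, plus strand) encodes calponin 1, which inhibits the myosin ATPase on actin filaments. Levels of 366.6, 419.9 and 473.8 CPM in CON mice faced 383.1, 348.1 and 315.5 CPM in T + E2 mice, where T + E2 mouse 1 lay above CON mouse 1. Cnn1 had a log2 fold change of -0.27 ± 0.13 (SE; adjusted p = 0.173). Smtn (ENSMUSG00000020439, chr11:3517523-3540612, minus strand) encodes smoothelin, an actin-associated protein of contractile smooth muscle. It measured 117.3, 127.4 and 138.3 CPM in CON mice and 110.8, 90.4 and 112.0 CPM in T + E2 mice. These groups did not overlap, but the log2 fold change of -0.29 ± 0.12 did not pass the test (SE; adjusted p = 0.115).

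Des (ENSMUSG00000026208, chr1:75360329-75368579, plus strand) encodes desmin, the intermediate filament of muscle cells, which skeletal muscle also makes in quantity. Its levels were 340.1, 282.3 and 335.2 CPM in CON mice and 253.5, 224.4 and 257.1 CPM in T + E2 mice. CON mouse 2 was the lowest of its group and still lay above all T + E2 mice. The log2 fold change was -0.38 ± 0.11 (SE; adjusted p = 0.0440). This call is close to the threshold and was kept in 9 of 17 alternative analyses, with log2 fold changes from -0.50 to -0.32.

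Because desmin is shared with skeletal muscle, the skeletal muscle markers were set beside it. The summed CPM of 24 such genes, leaving out Neb and Acta1, was 45.8, 288.8 and 133.5 in CON mice 1 to 3 and 65.2, 60.6 and 262.7 in T + E2 mice 1 to 3. CON mouse 2 and T + E2 mouse 3 were the richest in skeletal muscle RNA of their groups. CON mouse 2 had the least Des of the CON mice, whereas T + E2 mouse 3 had the most Des of the T + E2 mice, at 257.1 CPM. With both of these mice left out, an analysis added after the data were seen, Des had a log2 fold change of -0.50 (adjusted p = 0.0511), and the count of downregulated contractile genes was 0. That analysis compares 2 mice with 2, and called 782 of all tested genes downregulated where the 6 mice gave 1441.

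Mylk (ENSMUSG00000022836, chr16:34745210-35002420, plus strand) encodes myosin light chain kinase, the switch of contraction. CON mice had 367.0, 400.7 and 435.6 CPM and T + E2 mice 420.8, 380.9 and 352.8 CPM, with wide overlap. The log2 fold change was -0.06 ± 0.11 (SE; adjusted p = 0.738), and its 95% confidence interval ran from -0.31 to 0.19. Myocd (ENSMUSG00000020542, chr11:65176561-65269989, minus strand) encodes myocardin, the SRF coactivator of cardiac and smooth muscle. It had only 53 to 119 counts in a mouse, or 6.23, 4.93 and 3.33 CPM in CON mice and 7.40, 5.12 and 7.94 CPM in T + E2 mice. CON mouse 1 lay above T + E2 mouse 2. Myocd was the only contractile gene with a fold change above zero, at 0.50 ± 0.27 on the log2 scale (SE; adjusted p = 0.239), and its interval from -0.13 to 1.13 is the widest of the 10.

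**Figure D3:**
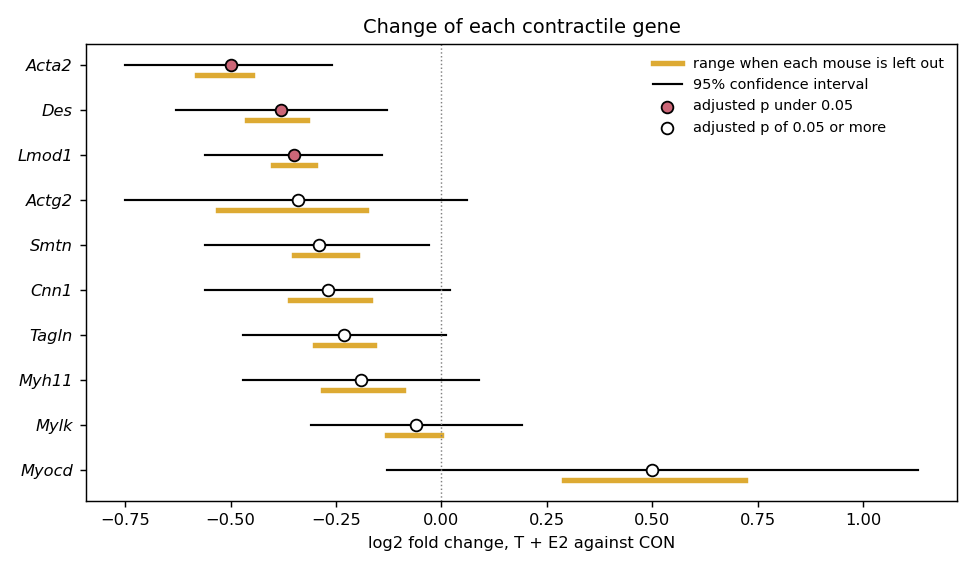
Log2 fold change of T + E2 against CON for each contractile gene, with black lines for the 95% confidence interval of the edgeR fit and yellow bars for the range when each of the 6 mice is left out. Filled points mark Acta2, Des and Lmod1, which passed an adjusted p of 0.05; the interval of Smtn also lies below zero, from -0.56 to -0.03, but did not pass after adjustment.

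The sizes of the changes were unequal among the genes, so ratios to Myh11 within each library were examined, after the data were seen. The ratio of Acta2 to Myh11 in FPKM was 2.91, 3.00 and 2.72 in CON mice and 2.23, 2.27 and 2.44 in T + E2 mice. All T + E2 mice lay below all CON mice, with a log2 difference of -0.31. The ratio of Cnn1 to Myh11 differed by -0.08 and that of Mylk to Myh11 by 0.13 on the log2 scale, also without overlap. Each of these 3 ratios gave p = 0.1 by the exact two-sided permutation test, the smallest p possible, and an adjusted p of 0.333 over the 10 ratios computed. The other 6 ratios to Myh11 overlapped between the groups.

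**Figure D4:**
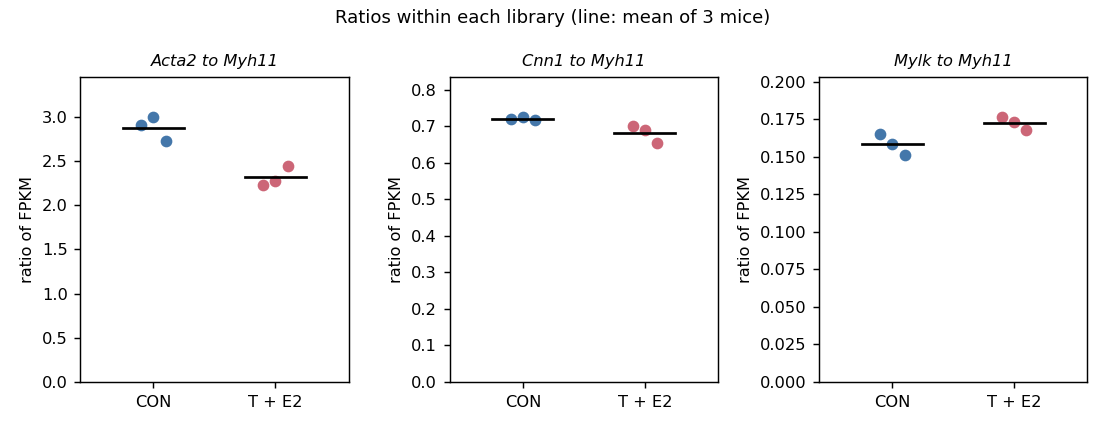
Ratio of FPKM of Acta2, Cnn1 and Mylk to Myh11 within each library, with axes from 0; points are mice and lines are means of 3 mice. The Acta2 ratio lies between 2.72 and 3.00 in CON mice and between 2.23 and 2.44 in T + E2 mice.

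The variation between mice of a group was also compared among the genes, as the deviation of each mouse from its group mean in log2 CPM. Over the 6 mice, the median Pearson correlation of a gene with the other 9 was 0.892 for Myh11, 0.887 for Tagln, 0.883 for Actg2 and 0.824 for Cnn1. It was -0.103 for Des, which varied apart from the others, and -0.684 for Myocd, which varied opposite to most of them. The r values of Myocd ran from -0.967 with Lmod1 to 0.305 with Des. These correlations are a description over 6 mice that share group means and library scaling. Outside the list, among 14761 genes compared, Fat2 (r = 0.9961), Mrpl57 (r = 0.9950), Prkrip1 (r = 0.9925), Rorb (r = 0.9923), Kctd5 (r = 0.9916), Lman2 (r = 0.9914), Polr2j (r = 0.9909) and 1110008F13Rik (r = 0.9894) followed the mean deviation of the contractile genes most closely. None of these 8 genes is in any of the partner or marker lists. The highest of 14761 r values over 6 mice, with group means removed, can be this high by selection alone. Whether these 8 genes vary with smooth muscle was not tested.

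Regulators of the contractile genes were called in both directions. Over all tested genes, 9.25% were downregulated, 10.4% were upregulated and 7.64% were DEGs. Of 34 tested genes of SRF, the myocardin family and other smooth muscle regulators, 6 were downregulated, 4 were upregulated and 24 did not pass, with a median log2 fold change of -0.05. The count of downregulated regulators was 1 without CON mouse 2, CON mouse 3 or T + E2 mouse 1, 2 without CON mouse 1 or T + E2 mouse 2, and 4 without T + E2 mouse 3. Srf itself measured 53.4, 61.8 and 56.6 CPM in CON mice and 46.3, 37.8 and 45.9 CPM in T + E2 mice. All T + E2 mice lay below all CON mice, and the log2 fold change was -0.40 ± 0.11 (SE; adjusted p = 0.0384). Mkl2, which encodes the SRF coactivator MRTF-B, had a log2 fold change of -0.43 (adjusted p = 0.0284), and Mkl1, which encodes MRTF-A, had -0.14 (adjusted p = 0.428). Tgfb1i1 (Hic-5, -0.55) and Tead3, a TEAD factor (-0.48), were the other moderate decreases.

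The 3 DEGs among the regulators lay outside the SRF complex. Hey1, a transcription factor downstream of Notch, averaged 9.69 CPM in CON mice and 2.52 CPM in T + E2 mice, at -1.94 on the log2 scale with an adjusted p of 0.00168. Hand2, a transcription factor of mesenchyme, had a log2 fold change of -1.23 with an adjusted p of 0.0352. Klf5, a zinc finger factor that epithelium also expresses, averaged 16.7 CPM in CON mice and 35.3 CPM in T + E2 mice, at 1.08 on the log2 scale with an adjusted p of 0.0138. Upregulated below the DEG size were the SRF cofactor Fhl2 (0.94), the ETS factor Elk3 (0.80) and the Notch receptor Notch3 (0.61).

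Promoters of Acta2, Lmod1, Des and Srf are shown because the first 3 genes passed the test and Srf encodes the factor that binds CArG boxes. They span 250 bases before to 50 after the RefSeq start on GRCm38.p6 and are printed 5′ to 3′ in the direction of the gene, at chr19:34255324-34255623 (minus strand), chr1:135324563-135324862 (plus strand), chr1:75360042-75360341 (plus strand) and chr17:46556113-46556412 (minus strand). Capitals mark CArG boxes (a pair of cytosines, 6 adenines or thymines in any order, and a pair of guanines, with at most 1 of the 6 inner letters off) and the motif CATTCC of TEAD factors, on the reverse strand GGAATG, wherever they occur.
Acta2: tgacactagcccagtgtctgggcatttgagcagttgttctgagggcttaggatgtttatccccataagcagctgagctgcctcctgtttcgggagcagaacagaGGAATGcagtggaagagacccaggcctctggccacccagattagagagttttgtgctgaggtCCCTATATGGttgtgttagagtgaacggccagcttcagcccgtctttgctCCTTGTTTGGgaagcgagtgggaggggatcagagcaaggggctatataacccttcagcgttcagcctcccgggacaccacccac
Lmod1: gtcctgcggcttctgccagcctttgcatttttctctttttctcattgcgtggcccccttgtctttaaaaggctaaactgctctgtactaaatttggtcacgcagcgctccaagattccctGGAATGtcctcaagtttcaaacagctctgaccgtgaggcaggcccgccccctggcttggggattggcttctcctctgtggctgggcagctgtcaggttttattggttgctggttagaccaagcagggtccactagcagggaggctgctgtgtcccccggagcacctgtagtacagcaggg
Des: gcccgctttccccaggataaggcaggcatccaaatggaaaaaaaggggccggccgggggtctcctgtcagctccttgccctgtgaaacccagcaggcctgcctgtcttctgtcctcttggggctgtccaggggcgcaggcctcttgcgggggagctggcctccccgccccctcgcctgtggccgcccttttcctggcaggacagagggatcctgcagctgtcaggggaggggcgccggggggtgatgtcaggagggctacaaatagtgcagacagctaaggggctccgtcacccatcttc
Srf: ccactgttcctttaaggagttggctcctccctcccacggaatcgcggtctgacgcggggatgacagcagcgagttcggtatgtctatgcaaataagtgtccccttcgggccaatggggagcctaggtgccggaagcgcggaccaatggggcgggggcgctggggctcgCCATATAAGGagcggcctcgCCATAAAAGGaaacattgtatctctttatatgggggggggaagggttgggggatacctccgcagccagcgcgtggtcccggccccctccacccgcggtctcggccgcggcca

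The Acta2 promoter held 2 CArG boxes with 1 letter off, beginning 84 and 34 bases before the start, and the TEAD motif on the reverse strand at 146. The Srf promoter held 2 CArG boxes with no letter off, at 82 and 62 bases before the start, and no CATTCC. The Lmod1 promoter held the TEAD motif on the reverse strand at 130 and no CArG box. Of all 32851 RefSeq promoters of this length, 1.63% held a CArG box with no letter off, 9.98% held at least 1 with up to 1 letter off, 0.822% held at least 2 such boxes, and 14.7% held CATTCC on either strand. RefSeq promoters were matched for 6 contractile genes, Acta2, Lmod1, Des, Cnn1, Smtn and Mylk. CATTCC also occurred in the promoters of Mylk and Smtn, at 158 and 222 bases before the start, and neither motif was found in those of Des and Cnn1. The Mylk and Smtn windows, chr16:34784700-34784999 and chr11:3539243-3539542, belong to starts inside the loci given above for these genes. Of 157 promoters of the partner genes, 12 (7.64%) held a CArG box with no letter off. The matches are letters in the sequence, and binding was not measured.

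The proteins that work beside the contractile genes were followed in 5 lists with 138 tested genes, regulators included. Of these, 17 were downregulated, 13 were upregulated and 5 were DEGs, and the median log2 fold change was -0.11. For these counts and those of each list below, the shares over all tested genes were 9.25, 10.4 and 7.64%. Among 31 thin filament, dense body and cytoskeletal partners, 2 were downregulated, Jph2 (junctophilin 2, log2 fold change -0.51) and Actn4 (alpha-actinin 4, -0.29). Lpp, an adaptor of focal adhesions in smooth muscle, was upregulated (0.66, adjusted p = 0.00275), and the median of this list was -0.14. The count of downregulated genes in this list depended on the analysis: it was 5 by DESeq2, 4 by total-count scaling, by both limma fits and without T + E2 mouse 3, 1 without CON mouse 2, and 0 without CON mouse 3, T + E2 mouse 1 or T + E2 mouse 2. Smooth muscle genes of the list with adjusted p over 0.05 were Csrp1 (-0.27), Tpm2 (-0.37), Synpo2 (-0.03) and Cald1 (0.05), which encode a LIM protein, beta-tropomyosin, synaptopodin 2 and caldesmon.

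Of 19 genes for myosin light chains and their phosphatase, 1 was upregulated and 18 did not pass the test, with a median log2 fold change of -0.15. That count was 3 by DESeq2, and 0 by both limma fits, by total-count scaling and without CON mouse 2, CON mouse 3, T + E2 mouse 1 or T + E2 mouse 2. Myl9, the regulatory light chain of smooth muscle myosin, had a log2 fold change of -0.23 (adjusted p = 0.414), and Ppp1r12a, the targeting subunit of the phosphatase, had 0.35 (adjusted p = 0.0603).

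Among 25 tested genes of calcium entry, calcium release and potassium channels, 5 were downregulated and 3 were upregulated. The count of downregulated genes was 1 without CON mouse 3, 3 without T + E2 mouse 3, and 2 without any other single mouse. Ano1, a calcium-activated chloride channel that epithelium also expresses, went from 193.5 ± 1.35 to 352.9 ± 27.3 CPM (SD, n = 3 mice each), with a log2 fold change of 0.87 (adjusted p = 0.000638). Abcc9, a subunit of ATP-sensitive potassium channels, was at 0.89 (adjusted p = 0.00190), and Ryr3, a ryanodine receptor, at 0.83. Among the downregulated genes were the voltage-gated potassium channel Kcnq5 (-0.99), the inositol trisphosphate receptor Itpr2 (-0.61), the calcium channel Orai1 (-0.54) and the caveolar protein Ptrf (-0.35).

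Receptors and nucleotide signalling of smooth muscle tone held the widest changes of the partner lists. Of 29 tested genes 4 were downregulated, 4 were upregulated and 2 were DEGs. Without CON mouse 3 or T + E2 mouse 2 the counts were 2 and 2, and without T + E2 mouse 1 or T + E2 mouse 3 the downregulated count was 2. Ptger3, the EP3 receptor of prostaglandin E2, measured 41.6, 30.6 and 35.5 CPM in CON mice and 6.30, 5.24 and 4.61 CPM in T + E2 mice, a log2 fold change of -2.74 (adjusted p = 4.4e-05). Agtr1a, the angiotensin II receptor, measured 187.3, 165.9 and 119.5 CPM in CON mice and 425.2, 498.4 and 497.3 CPM in T + E2 mice, a log2 fold change of 1.59 (adjusted p = 0.000645). For both receptors the groups were far apart.

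The endothelin receptors moved in opposite directions, Ednra at -0.59 and Ednrb at 0.82 on the log2 scale. Adra2a, an alpha-2 adrenoceptor, was downregulated (-0.98), as was Pde5a, the phosphodiesterase that degrades cyclic GMP (-0.44). Gucy1a3, a subunit of soluble guanylate cyclase, was upregulated (0.60). The alpha-1 adrenoceptors, which drive prostatic contraction, did not pass the test, with Adra1a at 0.77 (adjusted p = 0.0632), Adra1b at -0.27 and Adra1d at -0.82 (adjusted p = 0.155).

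**Figure D5:**
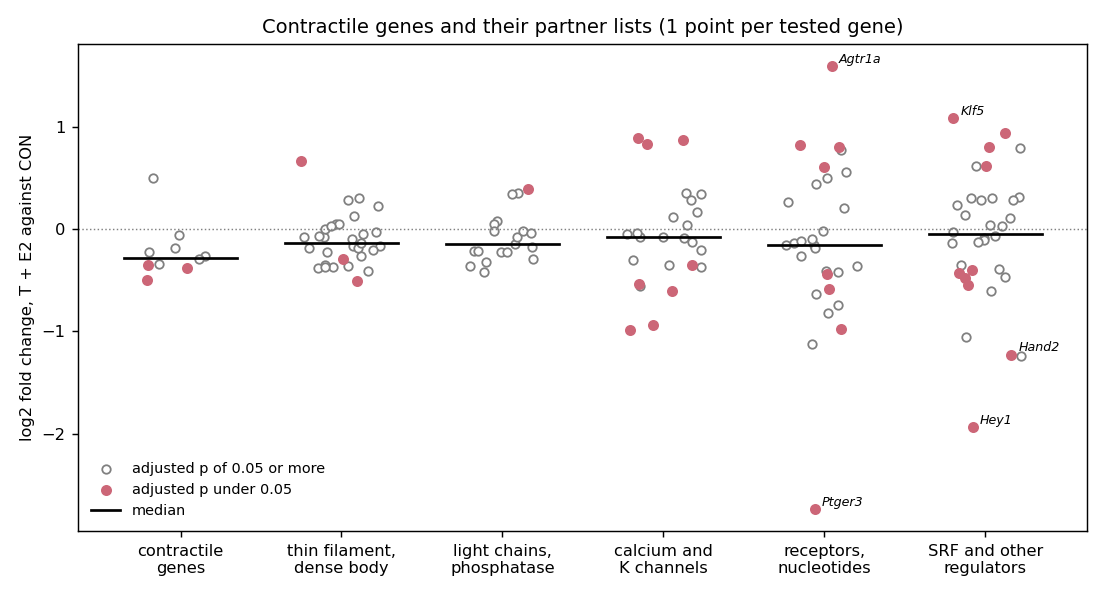
Log2 fold change of T + E2 against CON for each tested gene of the contractile genes and of 5 partner lists, with filled points at an adjusted p under 0.05 and black lines at list medians; called genes beyond 1 in either direction are named. The contractile genes lie between -0.50 and 0.50, with Ptger3 at -2.74 and Agtr1a at 1.59 as the extremes of the partner lists.

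Markers of other cells of the gland were set beside these values. Of 9 pericyte markers, 3 were downregulated, Cspg4 (-0.86), Pdgfrb (-0.73) and Mcam (-0.66), and 2 were upregulated, Abcc9 and Notch3. The median log2 fold change of the pericyte markers was -0.6, with 6 values below zero and 3 above. The summed CPM of the pericyte list overlapped, from 169.1 to 203.2 in CON mice and from 166.5 to 187.1 in T + E2 mice. Of 15 fibroblast markers, Thy1 was downregulated (-1.09, a DEG), Gsn was upregulated (0.57) and 13 did not pass, with a median log2 fold change of -0.12 and 10 values below zero. The fibroblast sums were 3935 to 4307 CPM in CON mice and 5062 to 5194 CPM in T + E2 mice, of which Gsn alone made 1702 to 1940 and 2636 to 2853 CPM, so the sum and the median had opposite signs. Of 12 endothelial markers, Vwf was upregulated (0.65) and Pecam1 had 0.42 (adjusted p = 0.197), with sums of 161.1 to 219.0 and 207.7 to 245.4 CPM.

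Several luminal epithelial transcripts had large fold changes. Of 12 luminal markers 3 were downregulated, 3 were upregulated and 6 did not pass, with a median of -0.15, and among those called were the secretory genes Pbsn (-3.29) and Tgm4 (-2.91), and Msmb (1.10) and Epcam (1.18). The luminal sums ran from 38851 to 52489 CPM in CON mice and from 14633 to 17474 CPM in T + E2 mice. Abundant transcripts weigh most in such a sum, so it does not describe the list as a whole. Of 5 basal markers, Trp63 was upregulated (0.57) and Krt15 had 0.59 (adjusted p = 0.0628), and the basal sums were 157.6 to 261.2 and 247.8 to 315.6 CPM. Of 7 tested fat markers none passed edgeR's test, with Lipe at -0.67 (adjusted p = 0.0769) and Pck1 at -2.06 (adjusted p = 0.0782). The median of the fat markers was -1.46, with all 7 values below zero. The fat sum was highest in CON mouse 2 at 539.3 CPM against 114.8 to 191.4 CPM in the other mice. Of 21 tested skeletal muscle markers, 2 were upregulated, Neb (5.28) and Tnnc1 (4.39). The median of this list was -0.34, with 16 values below zero and 5 above. The sums of the whole list were 108.2 to 470.4 CPM in CON mice and 308.3 to 535.0 CPM in T + E2 mice. Without Neb and Acta1 the sums were 45.8 to 288.8 CPM in CON mice and 60.6 to 262.7 CPM in T + E2 mice. A single listed marker, of skeletal muscle, had no count in any mouse. The part of these cells in the values of the contractile genes was not tested.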

How the data were processed

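RNA-seq libraries (TruSeq, paired-end) were made from 3 CON and 3 T + E2 prostates. The authors deposited, for 34745 genes, raw counts per gene and FPKM computed from those counts, gene length and library total. The submitters' processing notes name Bowtie2, HTSeq and TopHat, and the counting annotation and strand setting are not given in the sources used here. Coordinates are on GRCm38, and for 6 of the 10 genes equal those of GENCODE M21. All value columns belonged to these 6 mice.

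Counts were fitted in R 4.3.3 with edgeR 4.0.16 (filterByExpr with minimum count 10 and minimum total count 15, TMM, glmQLFit and glmQLFTest, two-sided, Benjamini-Hochberg over 15580 genes). The paper's methods used DESeq2, which was run as an alternative (1.42.0), as was limma 3.58.1 on log2(FPKM + 1) and log2(FPKM + 0.1). The biological coefficient of variation was 18%. Log2 CPM for correlations used a prior count of 2. Likeness was ranked over genes with a mean CPM of at least 1. Similar transcripts were sought with BLAST+ 2.17.0+, at 80% identity over 100 bases, and the longest alignment of each pair of genes was kept. The procedure was tested on simulated data, and its recovery of changes as small as those of the contractile genes is not reported here. Other alternatives changed the scaling or the filter, used protein-coding genes alone, blocked on replicate number or left out each mouse.

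The contractile genes, the 5 partner lists and the 7 marker lists were chosen with earlier results of these data known. From each list the text names DEGs, at most 4 by adjusted p, or, where there are none, up to 2 genes by adjusted p, and the 8 most alike genes. Further genes of the lists are named for their role or their call, after their values were seen, and some listed genes are not reported here. P-values of the edgeR test weigh a group difference against the variation between mice of a single experiment.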

Additional observations from a re-analysis of the deposited data

How the results depend on the processing

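Every contractile gene kept the sign of its log2 fold change under every alternative run, except Mylk, which ranged from -0.13 to 0.00 when each mouse was left out and crossed zero without CON replicate 3 (adjusted p = 0.989). Under other scalings, DESeq2, limma, an FPKM filter of 1 and protein-coding genes alone the count of downregulated contractile genes stayed within 1.5 times the 3 reported. Without a filter on low counts Des had an adjusted p of 0.0507. The FPKM filter removed Myocd, which has no value there. When each mouse was left out, 0 to 3 contractile genes were downregulated: 0 without T + E2 replicate 2, 1 without CON replicate 3, T + E2 replicate 1 or T + E2 replicate 3, and 2 without CON replicate 2. Their median log2 fold change ran from -0.34 to -0.18, with the value nearest zero without CON replicate 3.

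Leaving out each mouse gave 4 to 13 downregulated and 8 to 14 upregulated genes in the 5 partner lists, and 834 to 1267 downregulated genes of all tested. The lowest of these counts came without CON replicate 3. Limma on log2(FPKM + 1) gave 3 DEGs in the partner lists. With both mice richest in skeletal muscle RNA left out, chosen after the data were seen, 0 contractile genes were downregulated.

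Replicate numbers name different mice, and same-numbered mice did not deviate together (r = -0.0516, 0.0275 and 0.0463). A fit with the replicate block called 1 contractile gene, Acta2, 8 partner genes and 945 of all tested genes downregulated. Adjusted p-values were 0.0508 for Des and 0.0799 for Lmod1 in that fit.

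Depth limits Myocd most, with 53 to 119 counts in a mouse. For the 7 genes that did not pass, each 95% interval holds for its own gene, with 3 mice in each group. The intervals ran from -0.75 to 0.06 for Actg2, from -0.31 to 0.19 for Mylk and from -0.13 to 1.13 for Myocd. Changes within these bounds could not be told from none for these genes. The interval of Smtn lay below zero, from -0.56 to -0.03, but Smtn did not pass after adjustment.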
